A study of Caenorhabditis elegans and Caenorhabditis briggsae and Caenorhabditis remanei with 48 samples.

Results

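The forkhead transcription factor daf-16 and the kinase akt-1, which act in the insulin pathway, were followed through the exit of larvae from L1 diapause in C. elegans, C. briggsae and C. remanei. akt-1 was taken by its identifiers, CE31304 in C. elegans, CBP37674 in C. briggsae and RP17681 in C. remanei, and C. elegans daf-16 by CE28771. Each identifier is that of a protein, and any other rows of the same genes were not examined. The daf-16 rows of C. briggsae (CBP03114) and C. remanei (RP24090) were found as those whose change equals the one the study lists for the gene, so their change served to find them. These are 6 of 103767 coding sequences listed for 4 species. The C. brenneri counterparts of both genes were not analysed here. Developing animals had hatched in medium without food, been starved for 24 h and then been fed with E. coli HB101 for 3 h. Diapause animals had been starved for 24 h and harvested without food. The strains were N2 (C. elegans), AF16 (C. briggsae), PB4641 (C. remanei) and PB2801 (C. brenneri), and no group carried a further allele or agent. Each combination of species, state and assay had 3 libraries, 48 in all, from whole larvae in liquid culture. By the study's methods, both states of a replicate came from a single batch of worms, but the values used here carry no batch number. Developing animals were also 3 h older than diapause animals, so feeding and age cannot be told apart.

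In C. elegans, insulin-like ligands act through a receptor and PI3 kinase to activate the kinase AKT-1. AKT-1 phosphorylates DAF-16, the FOXO transcription factor, which then stays in the cytoplasm bound by 14-3-3 proteins. When signalling is low, as in starved larvae, DAF-16 enters the nucleus and turns on stress and survival genes, and L1 larvae that lack daf-16 activity survive starvation poorly. Phosphorylation acts on proteins already made, and neither assay used here measures it.

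mRNA-seq measured the relative abundance of each poly(A) RNA. Ribosome profiling measured ribosome-protected fragments (RPFs), the pieces of mRNA covered by ribosomes. Translation efficiency (TE) is RPF over mRNA abundance. All levels below are normalized reads, that is, reads of a coding sequence divided by the size factor of its library, and they are normalized within a species and assay only. The reads of single libraries were recovered from the deposited group means, as described under the processing. Recovered reads over all coding sequences came to 4926919 to 25470282 per mRNA library and 1784470 to 14325473 per RPF library. The members had 86 to 9125 reads in a library. Of the libraries, diapause library 1 of C. remanei mRNA stood apart, with reads in 30408 coding sequences. The other mRNA diapause libraries of that species had reads in 26924 and 26932. Library 1 was also deeper, with 15828853 recovered reads against 9375486 and 7751948, and the part of depth in this was not tested. For the members, the C. remanei log2 changes, ratios and mRNA differences from other species are given with and without that library. Other values are given only with it.

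Both genes were lower in developing than in diapause animals at the mRNA and RPF level in all 3 species. The daf-16 mRNA fell to 59.3% (C. elegans), 38.0% (C. briggsae) and 51.2% (C. remanei) of the diapause mRNA level. The akt-1 mRNA fell to 19.3%, 13.1% and 40.2% of the diapause level of the same species. At the RPF level the developing mean of daf-16 was 46.0%, 23.4% and 30.7% of the diapause mean in the same species order, and that of akt-1 was 15.2%, 10.7% and 26.5%. Both genes belong to a list of 27 that the study chose as differentially expressed in RPF data of at least 2 species, so the direction of their change is not independent evidence. Because whole larvae were used, fewer cells that express a gene and less RNA per cell cannot be told apart. The values are also relative. The study states that translation as a whole is substantially lower in diapause, so an RPF fall is a fall in share. Absolute translation of these genes was not measured.

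**Figure D1:**
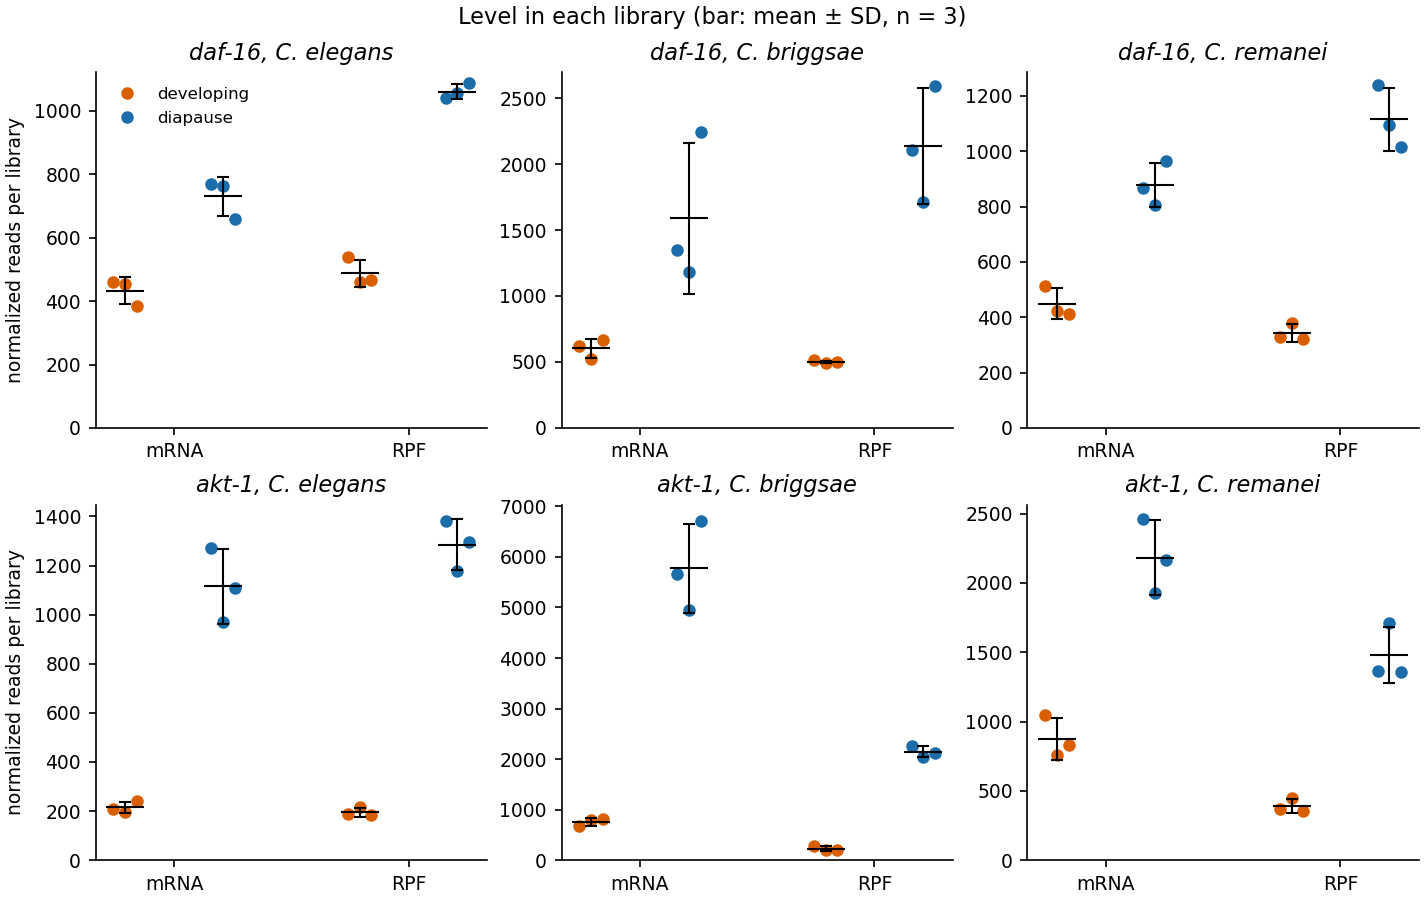
Normalized reads of daf-16 (top) and akt-1 (bottom) in each library of C. elegans, C. briggsae and C. remanei, with developing libraries left of diapause libraries for mRNA and for RPF. Points are libraries and bars are mean ± SD (n = 3). In each of the 12 pairs of groups the developing libraries lie below the diapause libraries.

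daf-16 encodes the transcription factor at the end of the pathway. In C. elegans its mRNA level was 460, 455 and 386 normalized reads in developing libraries 1 to 3, against 771, 762 and 660 in diapause libraries. No developing library reached a diapause library, and the highest developing value was 69.7% of the lowest diapause value. The log2 fold change was -0.75 ± 0.12 (SE, n = 3 libraries per state, limma adjusted p = 4.1e-04). The RPF level was 538, 462 and 465 in developing libraries and 1040, 1055 and 1087 in diapause libraries. These groups lay further apart, with a log2 change of -1.12 ± 0.10 (limma adjusted p = 2.9e-06).

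The C. briggsae daf-16 mRNA was measured at 621, 525 and 664 normalized reads in developing libraries, against 1349, 1179 and 2244 in diapause libraries. Diapause library 3 was the highest by far, so the diapause mean of 1590 ± 572 (SD, n = 3) was less certain than the developing mean of 604 ± 71.0 (SD, n = 3). The log2 change was -1.35 ± 0.21 (limma adjusted p = 5.0e-04), and it was -1.07 without that library (limma adjusted p = 7.7e-05). RPF levels were 511, 492 and 500 in developing libraries and 2108, 1713 and 2591 in diapause libraries. The developing libraries were nearly equal, and the log2 change was -2.07 ± 0.16 (limma adjusted p = 1.2e-05).

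In C. remanei the daf-16 mRNA level was 513, 423 and 412 normalized reads in developing libraries, against 866, 804 and 964 in diapause libraries. The log2 change was -0.97 ± 0.13 (limma adjusted p = 5.5e-04), and -0.98 without diapause library 1 (limma adjusted p = 0.0031). RPF levels were 329, 379 and 320 in developing libraries and 1239, 1095 and 1014 in diapause libraries, a log2 change of -1.70 ± 0.11 (limma adjusted p = 2.2e-07). The groups of both assays were separate, and the highest developing RPF value was 37.4% of the lowest diapause value.

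akt-1 encodes the kinase that acts upstream of DAF-16. Its C. elegans mRNA level was 209, 196 and 240 normalized reads in developing libraries, against 1271, 968 and 1107 in diapause libraries. The log2 change was -2.37 ± 0.13 (SE, n = 3 per state, limma adjusted p = 6.2e-07). RPF levels were 188, 215 and 183 in developing libraries and 1382, 1177 and 1296 in diapause libraries. The highest developing RPF value was 18.3% of the lowest diapause value, and the log2 change was -2.71 ± 0.11 (limma adjusted p = 6.5e-09).

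In C. briggsae the mRNA level of akt-1 was 673, 786 and 814 normalized reads in developing libraries, against 5662, 4946 and 6711 in diapause libraries. Its log2 change of -2.92 ± 0.13 (limma adjusted p = 2.9e-07) was the most negative mRNA change among the 6 members. RPF levels were 278, 211 and 198 in developing libraries and 2260, 2046 and 2126 in diapause libraries, a log2 change of -3.24 ± 0.15 (limma adjusted p = 8.5e-07). The states did not overlap in either assay.

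The C. remanei akt-1 mRNA was at 1047, 756 and 829 normalized reads in developing libraries, against 2460, 1926 and 2164 in diapause libraries. This was a log2 change of -1.32 ± 0.15 (limma adjusted p = 2.5e-04), and of -1.23 without diapause library 1 (limma adjusted p = 0.0014). RPF levels were 373, 450 and 353 in developing libraries and 1366, 1710 and 1360 in diapause libraries, with a log2 change of -1.91 ± 0.13 (limma adjusted p = 2.1e-07). The states were again separate, but less far apart than in the other species.

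A call was a Benjamini-Hochberg adjusted p under 0.1 over all coding sequences of a table with an average of at least 10 normalized reads. All 6 members passed this limit in both assays. All 6 were called lower in developing animals for mRNA and all 6 for RPF. Over all sequences tested, 30% of C. elegans, 30.3% of C. briggsae and 18.3% of C. remanei sequences were called lower for mRNA, and 32.7%, 32.6% and 31.7% for RPF. Calls in this direction were thus common, and the members' count is read against that share. Every developing library lay below every diapause library in 12 of 12 comparisons of a member. This held for 30.2%, 30.9% and 21.8% of all sequences tested for mRNA in C. elegans, C. briggsae and C. remanei, and for 32.8%, 33% and 31% for RPF.

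The size of the change set akt-1 further from the bulk than daf-16. For mRNA, the change of akt-1 lay at percentile 2.15 of all tested sequences in C. elegans, 1.89 in C. briggsae and 5.63 in C. remanei, counted from the most negative change. daf-16 lay at percentiles 16.99, 9.36 and 10.999. For RPF the percentiles were 2.73, 2.06 and 4.59 for akt-1 and 14.4, 6.26 and 6.40 for daf-16. The median log2 change of all tested sequences lay between -0.04 and -0.01 in these 6 tables.

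**Figure D2:**
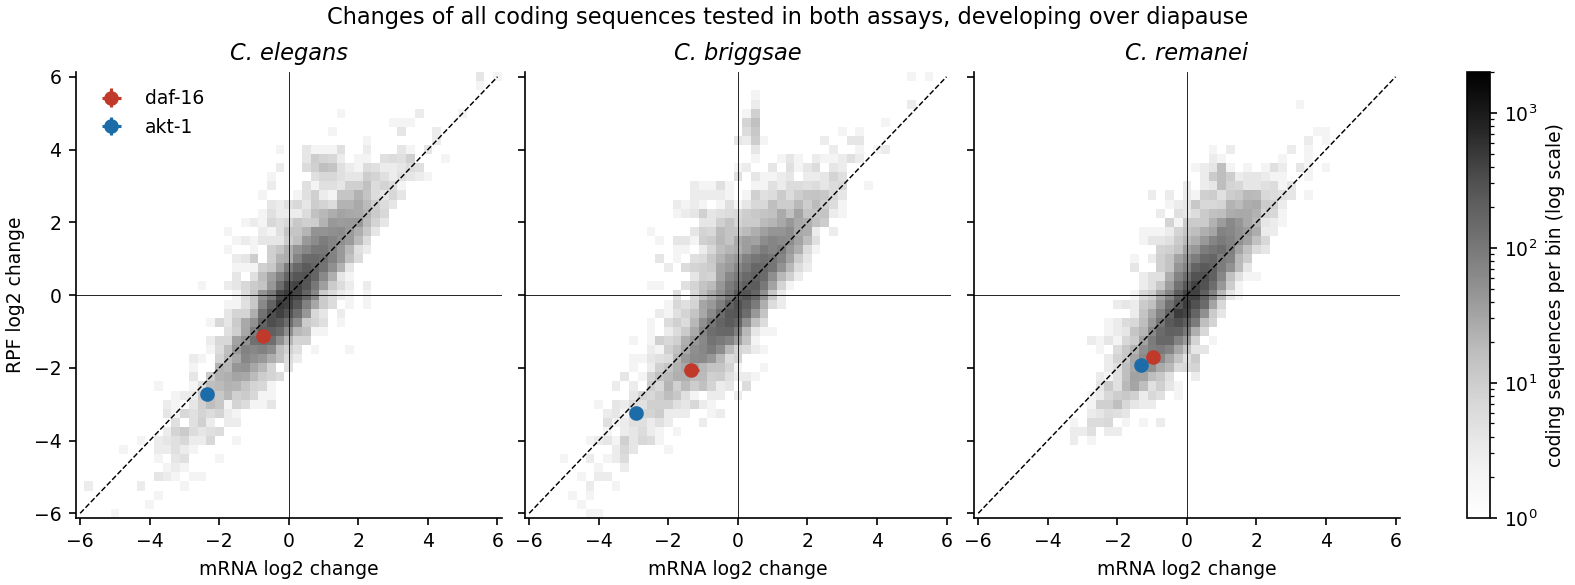
RPF log2 change against mRNA log2 change, developing over diapause, for coding sequences tested in both assays in 3 species, as a density on a log scale with bins of equal width and the line of equal change dashed. Both genes sit below that line in each species, akt-1 at an RPF change of -2.71, -3.24 and -1.91 and daf-16 at -1.12, -2.07 and -1.70 in C. elegans, C. briggsae and C. remanei, with SE bars in both directions where these are larger than the point.

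The fall of akt-1 relative to daf-16 was examined within each library, as log2 of akt-1 over daf-16, a measure that no scaling of a library can move. In C. elegans mRNA this ratio averaged -1.01 ± 0.28 in developing and 0.60 ± 0.22 in diapause libraries (SD, n = 3 each), a change of -1.61. In C. briggsae mRNA it averaged 0.33 ± 0.23 in developing and 1.91 ± 0.28 in diapause libraries, a change of -1.58. The RPF change of the ratio was -1.59 in C. elegans and -1.17 in C. briggsae. In these 4 comparisons the states did not overlap. In C. remanei the ratio changed by -0.35 for mRNA, again without overlap, and by -0.21 for RPF, where the developing range of 0.14 to 0.25 lay inside the diapause range of 0.14 to 0.64. An exact two-sided permutation test gave p = 0.1, the smallest that 3 libraries against 3 allow, in all but the last of the 6 comparisons, which had exact p = 0.4 (adjusted over the 6, exact p = 0.12 and 0.4). This exact test can call none of them, and no other test was run on the ratio. Without diapause library 1, the C. remanei mRNA ratio changed by -0.25.

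TE was lower in developing animals for all 6 members and passed the test for both genes in C. remanei. That test took the libraries of the 2 assays as independent. The study drew both assays from common samples, and this pairing was not used. The median log2 TE change of all tested sequences was also below 0, at -0.08 (C. elegans), -0.11 (C. briggsae) and -0.13 (C. remanei). Counted from the most negative change, TE of daf-16 lay at percentiles 27.5, 13.3 and 12.9 in the same order. For akt-1 the TE percentiles were 28.8, 36.2 and 19.0. The log2 TE change of daf-16 in C. remanei was -0.73 ± 0.17 (interaction of state and assay over 12 libraries, limma adjusted p = 0.0097), and that of akt-1 was -0.59 ± 0.20 (limma adjusted p = 0.063). Without diapause library 1 of the C. remanei mRNA, these changes were -0.72 (limma adjusted p = 0.023) and -0.68 (limma adjusted p = 0.053). The akt-1 call was lost in 6 of 12 fits that each left out a single library (limma adjusted p between 0.040 and 0.15 over the 12), namely mRNA developing library 1, mRNA diapause library 2 or 3, RPF developing library 1 or 3, or RPF diapause library 2. In C. elegans the log2 TE change was -0.37 ± 0.15 for daf-16 (limma adjusted p = 0.12) and -0.35 ± 0.17 for akt-1 (limma adjusted p = 0.20). In C. briggsae it was -0.72 ± 0.30 for daf-16 (limma adjusted p = 0.11) and -0.31 ± 0.21 for akt-1 (limma adjusted p = 0.32). Lower TE was called for 2 of 6 members, against 9.81% (C. elegans), 12.1% (C. briggsae) and 11.9% (C. remanei) of all tested sequences. At an adjusted p under 0.05 it was called for 1 of 6, against 5.83%, 7.31% and 7.41%. Whether TE changes differed between species was tested separately, as given with the species comparisons.

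Without diapause library 3 of the C. briggsae mRNA, the library in which daf-16 stood high, the C. briggsae daf-16 TE change was -1.001 (limma adjusted p = 0.0072). With each table scaled to its summed signal, TE of the 2 members passed the test in C. elegans and not in C. remanei. In that scaling the C. remanei changes were -0.24 for daf-16 and -0.11 for akt-1 (limma adjusted p = 0.32 and 0.76), and those in C. elegans were -0.67 for daf-16 and -0.65 for akt-1 (limma adjusted p = 0.0049 and 0.013). The 3 sequences with most signal held 66.0% of the summed RPF signal of developing and 80.3% of that of diapause C. remanei. In C. briggsae the top 3 held 42.9% and 65.5%, against 1.94% and 2.45% in C. elegans. The part of such sequences in results with summed-signal scaling, here and in the species comparisons, was not tested.

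**Figure D3:**
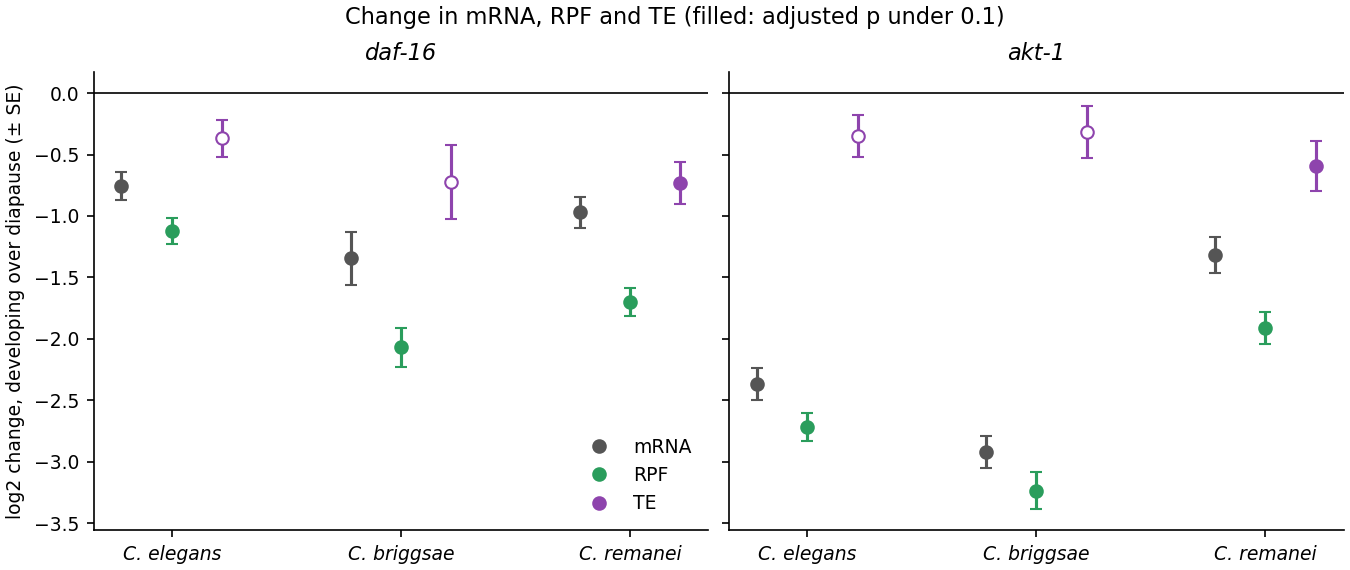
Log2 change of developing over diapause animals in mRNA, RPF and TE for daf-16 (left) and akt-1 (right) in 3 species, with SE. Filled points passed an adjusted p of 0.1. All mRNA and RPF points lie below 0 and are filled, while the TE points are filled in C. remanei (-0.73 for daf-16 and -0.59 for akt-1) and open in the other species.

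RPF over mRNA in each state was read against the median ratio of the well-expressed transcripts of the same species and state, those with a mean of at least 50 normalized reads in both assays, since the assays were normalized apart. daf-16 was well above this median in both states. In C. elegans its ratio was 1.81-fold the median in developing animals and 2.35-fold in diapause animals, at percentiles 92.6 and 96.6. In C. briggsae it was 1.58-fold in developing and 2.61-fold in diapause animals, at percentiles 87.0 and 96.3. In C. remanei it was 1.39-fold in developing and 2.25-fold in diapause animals, at percentiles 77.8 and 95.1. In diapause, daf-16 was thus among the most ribosome-loaded transcripts per mRNA by this measure in all 3 species.

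akt-1 did not hold 1 position between species. In C. elegans its ratio was 1.46-fold the median in developing and 1.87-fold in diapause animals, at percentiles 81.3 and 89.4. In C. briggsae it lay under the median in both states, at 0.58-fold in developing and 0.72-fold in diapause animals (percentiles 15.6 and 32.6). In C. remanei it was 0.81-fold in developing and 1.20-fold in diapause animals (percentiles 34.0 and 62.7). Without mRNA diapause library 1 the C. remanei diapause ratios were 2.27-fold the median for daf-16 and 1.30-fold for akt-1, at percentiles 95.04 and 68.0. These ratios are descriptions of each state, with SE of 0.07 to 0.33 on the log2 scale, and the change between states is the TE change tested above. The difference in this ratio between species was not tested.

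**Figure D4:**
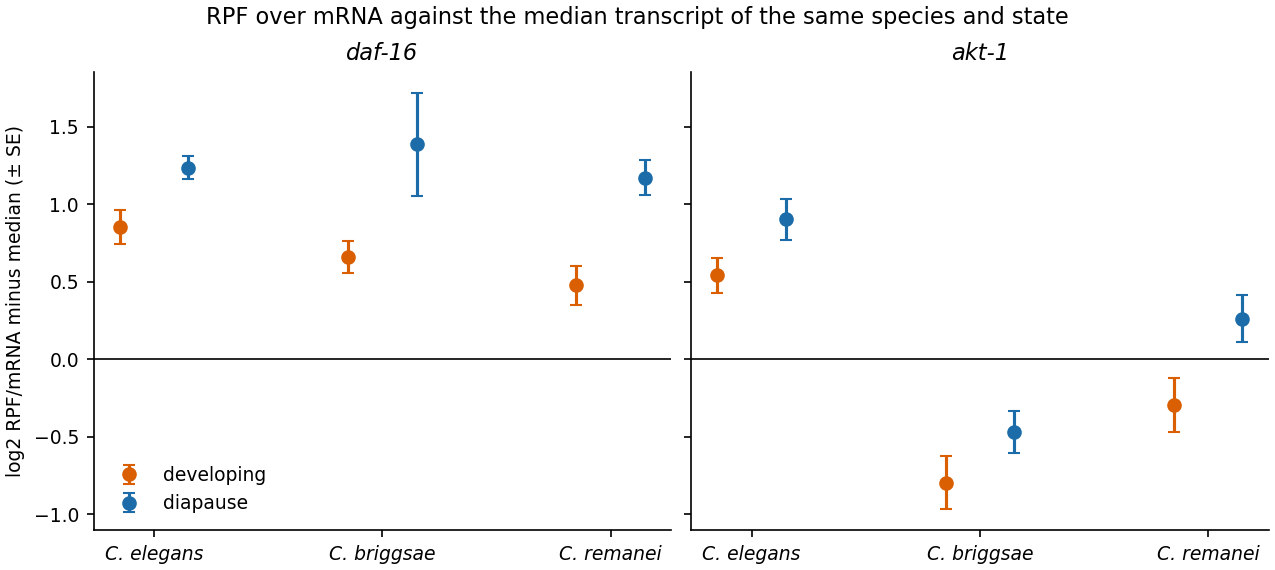
RPF over mRNA of daf-16 (left) and akt-1 (right), as log2 of the ratio minus log2 of the median ratio of well-expressed transcripts, in developing and diapause animals of 3 species, with SE from the 3 libraries of each assay. daf-16 lies above the median in both states of each species, at 0.85 and 1.23 in developing and diapause C. elegans, whereas akt-1 in C. briggsae lies below it, at -0.80 in developing and -0.47 in diapause animals.

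The depth of the change differed between species. Species pairs were compared in the log2 change of each gene by permuting the species label within a state, for 18 combinations of gene, measure and species pair, and 8 passed an adjusted p of 0.1. The RPF fall of daf-16 was weaker in C. elegans than in C. briggsae, by 0.95 ± 0.19 on the log2 scale (SE, permutation p = 0.005, adjusted 0.015; 0.40 and adjusted 0.09 when tables were scaled to their summed signal), and than in C. remanei, by 0.58 ± 0.15 (permutation p = 0.005, adjusted 0.015), although the difference from C. remanei was -0.02 in that scaling. A p of 0.005 is the smallest these permutations can give. The mRNA change of daf-16 differed by 0.59 ± 0.24 between C. elegans and C. briggsae (permutation adjusted p = 0.11), by 0.21 ± 0.17 between C. elegans and C. remanei (permutation adjusted p = 0.33) and by -0.38 ± 0.25 between C. briggsae and C. remanei (permutation adjusted p = 0.395). Their RPF changes differed by -0.37 ± 0.20 between C. briggsae and C. remanei (permutation adjusted p = 0.14).

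For akt-1 the fall was weakest in C. remanei. Its mRNA change in C. elegans minus that in C. remanei was -1.05 ± 0.20 on the log2 scale, and in C. briggsae the difference from C. remanei was -1.60 ± 0.20 (permutation p = 0.005 for each, adjusted 0.015). For RPF the differences from C. remanei were -0.80 ± 0.17 in C. elegans and -1.32 ± 0.20 in C. briggsae (permutation p = 0.005 for each, adjusted 0.015). Between C. elegans and C. briggsae the difference was 0.56 ± 0.18 for mRNA and 0.52 ± 0.19 for RPF (permutation p = 0.02 for each, adjusted 0.045), the RPF difference turning to -0.02 with summed-signal scaling. TE changes differed by at most 0.36 ± 0.23 between C. elegans and C. remanei (daf-16, permutation adjusted p = 0.30) and by 0.36 ± 0.33 between C. elegans and C. briggsae (daf-16, permutation adjusted p = 0.62), and none of the 6 TE pairs passed the test. Labels were permuted separately for mRNA and RPF, so species differences in either assay widen the permuted range of TE differences. The TE test therefore cannot decide whether TE changes agree between species.

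Without C. remanei mRNA diapause library 1, the akt-1 mRNA differences from C. remanei were -1.14 in C. elegans and -1.69 in C. briggsae (permutation adjusted p = 0.03 and 0.018), and the daf-16 mRNA differences were 0.22 and -0.37 (permutation adjusted p = 0.47 and 0.55).

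These species differences are relative to the scaling of each table. With summed-signal scaling both differences that turned had permutation adjusted p = 0.95, while the 4 akt-1 differences from C. remanei remained called at -0.85 and -1.35 for mRNA and -1.40 and -1.37 for RPF (adjusted 0.0225 for each). The akt-1 difference between C. elegans and C. briggsae was called in 1 of 12 fits without a single library for mRNA and in 1 of 12 for RPF.

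Other pathway genes came from a list of 26 signalling genes, of which 6 could be paired with identifiers in C. elegans, daf-16 and akt-1 among them. The identifier CE05441, given as daf-2 in the list of 27, is named daf-21, the gene of a chaperone, in another supplementary list of the study, so no value is given here for the insulin receptor. Of the 6 paired genes, 4 were called lower and 1 higher for mRNA in developing C. elegans, and of the 5 that passed the limit on reads in RPF data, 3 were called lower and 1 higher. Over all C. elegans sequences tested, 30% were called lower and 30.6% higher for mRNA, and 32.7% lower and 32.6% higher for RPF. The median log2 change of the list was -0.63 for mRNA and -0.67 for RPF, against -0.01 and -0.04 over all sequences tested. The identifiers of all 6 came from supplementary lists that the study chose on these samples: daf-15 and the members from the list of 27, eak-3 from a list of strongly discordant genes, and par-5 and ftt-2 from genes with high weights on principal components of the RPF data. The count and median therefore carry that choice and say nothing of the pathway as a whole.

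daf-15, which encodes the Raptor subunit of the TOR complex, fell moderately. Its mRNA log2 change was -0.50 ± 0.15 in C. elegans, where the states overlapped (limma adjusted p = 0.019), -0.62 ± 0.16 in C. briggsae (limma adjusted p = 0.0091) and -0.33 ± 0.10 in C. brenneri (limma adjusted p = 0.038). In C. remanei it was -0.08 ± 0.12 (limma adjusted p = 0.64), with overlapping states. RPF changes were -0.67 ± 0.11 (C. elegans), -0.83 ± 0.15 (C. briggsae), -0.25 ± 0.12 (C. remanei, with overlapping states) and -0.53 ± 0.09 (C. brenneri), with limma adjusted p between 3.7e-04 and 0.081. In C. brenneri 18.5% of all tested sequences were called lower for mRNA and 30.5% for RPF. eak-3, another gene of the signalling list, had a C. elegans mRNA level of 18.1, 17.8 and 17.4 in developing libraries, against 48.7, 43.5 and 61.7 in diapause libraries. Its mRNA change was -1.46 ± 0.24 (limma adjusted p = 7.3e-04), and its RPF level, at most 16.96 normalized reads in any library, did not pass the limit. The eak-3 RPF mean was 9.65 in developing and 4.25 in diapause libraries, opposite in direction to its mRNA, with overlapping states.

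par-5 and ftt-2 encode the 14-3-3 proteins that bind phosphorylated DAF-16. Reads that match both of these closely similar genes were dropped, as were all reads with several genomic positions. par-5 rose by 0.46 ± 0.11 in mRNA (limma adjusted p = 0.0059) and by 0.43 ± 0.12 in RPF data (limma adjusted p = 0.0086). ftt-2 had log2 changes of -0.04 ± 0.11 in mRNA (limma adjusted p = 0.79) and -0.21 ± 0.14 in RPF data (limma adjusted p = 0.23).

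Of 8 genes known as DAF-16 targets in C. elegans, 2 were paired, and both were called lower in developing C. elegans in both assays. The other targets have no value here. Of all sequences tested, 30% (C. elegans), 30.3% (C. briggsae), 18.3% (C. remanei) and 18.5% (C. brenneri) were called lower for mRNA. For RPF these shares were 32.7%, 32.6%, 31.7% and 30.5%. sod-3, a mitochondrial superoxide dismutase, had RPF levels of 9.42, 6.63 and 16.1 in developing libraries, against 374, 379 and 173 in diapause libraries. Its log2 change was -4.77 ± 0.46 in mRNA (limma adjusted p = 2.1e-05) and -4.72 ± 0.37 in RPF data (limma adjusted p = 8.1e-07). hsp-12.6, a small heat shock protein, was called lower in both assays in all 4 species, with RPF changes of -5.57 ± 0.51 (C. elegans), -5.28 ± 0.46 (C. briggsae), -3.58 ± 0.22 (C. remanei) and -2.29 ± 0.42 (C. brenneri), at limma adjusted p between 9.2e-08 and 0.0021. Its C. brenneri mRNA values overlapped between states (log2 change -1.26 ± 0.44, limma adjusted p = 0.057). Its developing RPF libraries held as few as 1 read in C. elegans, where the fitted change depends on the pseudocount. Both genes were on the study's list of 27, so their direction is not independent evidence.

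**Figure D5:**
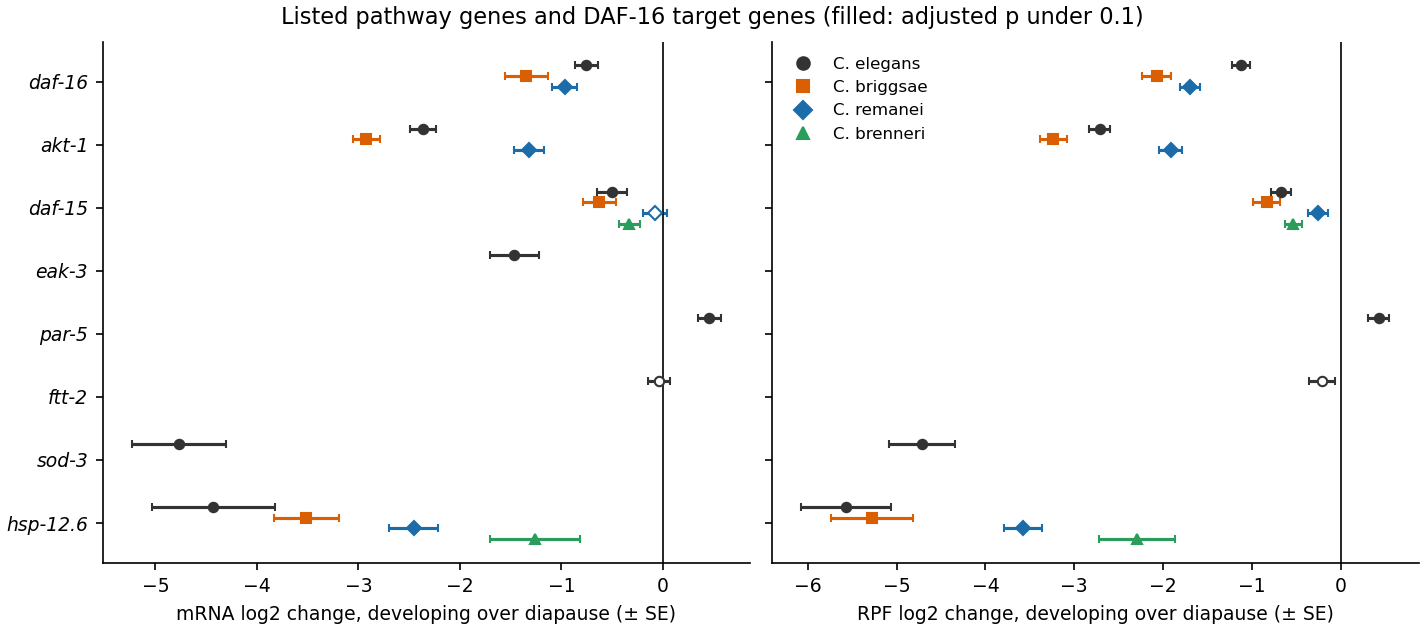
Log2 change of developing over diapause animals in mRNA (left) and RPF (right) for the listed pathway genes and 2 DAF-16 target genes, with SE, in up to 4 species. Filled points passed an adjusted p of 0.1. par-5 lies above 0 (0.46 in mRNA), ftt-2 is open near 0 (-0.04 in mRNA), and sod-3 and hsp-12.6 lie far to the left (-4.77 and -4.43 in C. elegans mRNA).

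Genes of the list of 27 with all 6 log2 ratios (mRNA and RPF in 3 species) numbered 26, and the most alike were taken by Euclidean distance over those ratios. Closest to daf-16 were atg-3 (distance 0.83), unc-51 (0.89) and lite-1 (0.92), named as that list names them. atg-3 and unc-51 encode autophagy proteins. Closest to akt-1 were lgg-1 (0.96), which encodes an autophagy protein of the LC3 family, atg-18 (1.08), another autophagy gene, and mfb-1 (1.096). The list was chosen by the study for changes in these samples, and the distances describe patterns among these genes only.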

How the data were processed

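Adaptors were removed and reads aligned by the authors to WS230 genomes and coding sequences using Bowtie 0.12.7. Reads with several genomic positions were dropped. The authors summed reads per coding sequence and normalized with DESeq (version not given in the sources used here), separately for each species and assay. A read within several isoforms of a gene can count for each. The signal columns the authors deposited are means over 3 libraries of reads divided by size factors. The deposited variance columns are a ratio of observed to fitted variance. The columns of fold changes, p-values and adjusted p-values hold the authors' own comparison and were not used.

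Whole reads of each library were recovered from the group means by solving for the 3 whole numbers that give each mean. A solution was found for 99.74% to 99.98% of sequences per group. In a check on values the solution did not use, the variance of the recovered reads was divided by the deposited ratio. Less a counting term, the result should follow the mean smoothly. It deviated from that of sequences with neighbouring means by a median of at most 0.023%. For the members' 24 groups the deviation was at most 1.13%. Only sequences above a low mean for which this result was positive entered the check. In simulated data 99.8% of sequences were recovered. Recovered libraries are numbered by falling size factor within a state, which pairs nothing. The 48 pairs of libraries of a group all differed by more than counting noise (at least 1.82 times).

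The test was limma 3.58.1 in R 4.3.3 with an intensity trend on log2(normalized reads + 1), for sequences averaging at least 10, with Benjamini-Hochberg adjustment and a threshold of 0.1. TE was tested as the interaction of state and assay. In simulated C. elegans mRNA and RPF data with 200 changed sequences each, 77.5% and 75.5% of 2-fold changes were called. Of all calls, 18 of 173 (mRNA) and 11 of 162 (RPF) were false. Far more sequences were called in the real data, so these rates need not hold there. Species were compared by 400 permutations (160000 for TE). Alternatives were another scaling, centring, pseudocount, filter, limma-voom and leaving out each library. Those for the species pairs and for akt-1 over daf-16, and the ratio of RPF to mRNA without a library, were chosen after seeing the data.

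The developing and diapause columns were told apart by the study's lists of transcripts: 1576 of 1576 listed as higher in developing C. elegans and 569 of 569 listed as higher in diapause fitted. The daf-16 rows of C. briggsae and C. remanei were found as those whose ratio equals the value the study lists, which served as a key only. Named genes were the members, 2 gene lists with known identifiers and the 3 most alike genes for each member. daf-2 of the planned list was left out because its identifier has 2 names. The members and lists were chosen with earlier results of these data known. Libraries of a group were described as biological replicates.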

Additional observations from a re-analysis of the deposited data

Results flagged for a closer look

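Differences between species in the log2 change of a member (developing over diapause) were flagged where the permutation test of the difference itself passed an adjusted p of 0.1. For daf-16 RPF these were C. elegans minus C. briggsae (0.95, but 0.40 with summed-signal scaling) and C. elegans minus C. remanei (0.58, but -0.0179 with summed-signal scaling). For akt-1 mRNA they were C. elegans minus C. briggsae (0.56), C. elegans minus C. remanei (-1.05) and C. briggsae minus C. remanei (-1.60). For akt-1 RPF they were C. elegans minus C. briggsae (0.52, but -0.0233 with summed-signal scaling), C. elegans minus C. remanei (-0.80) and C. briggsae minus C. remanei (-1.32). A positive value means a weaker fall in the species named first.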

How the results depend on the processing

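All mRNA and RPF calls of the members kept their direction and call under each alternative and without each library. TE calls did not. The C. elegans TE change was -0.67 for daf-16 and -0.65 for akt-1 with summed-signal scaling, and that of C. remanei was -0.24 for daf-16 and -0.11 for akt-1. Centring on the median of well-expressed transcripts gave -0.78 for C. briggsae daf-16, now called, and -0.53 for C. remanei akt-1, no longer called. The median itself was above 0.1 in C. remanei (mRNA 0.18, RPF 0.11) and in C. briggsae RPF (0.14). With at least 50 reads in both assays, C. briggsae daf-16 TE was called at -0.72. Leaving out single libraries gave TE changes from -0.45 to -0.30 for daf-16 in C. elegans (called without RPF developing library 1 or mRNA developing library 3), -1.001 to -0.54 for daf-16 in C. briggsae (called without RPF diapause library 2 or mRNA diapause library 3) and -0.70 to -0.46 for akt-1 in C. remanei. At an adjusted p under 0.05, 1 of 6 members was called lower in TE.

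Species differences moved with scaling. With summed-signal scaling, C. elegans minus C. remanei was -0.0179 for daf-16 RPF and 0.41, now called, for daf-16 mRNA, and C. elegans minus C. briggsae was -0.0233 for akt-1 RPF. Centred on the median, the daf-16 mRNA differences of C. elegans from C. briggsae (0.64) and C. remanei (0.35) were called. Without single libraries, C. elegans minus C. briggsae ranged from 0.31 to 0.78 for daf-16 mRNA, 0.44 to 0.66 for akt-1 mRNA and 0.43 to 0.67 for akt-1 RPF. The cause was not tested. No paired analysis was possible because the recovered libraries carry no batch number, although both states of a replicate came from a single batch.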
